A study of Mus musculus with 4 samples.

Results

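The 10 genes described here encode the surfactant proteins and other proteins typical of alveolar type 2 cells: Sftpa1, Sftpb, Sftpc, Sftpd, Abca3, Lpcat1, Lamp3, Napsa, Slc34a2 and Etv5. They were picked by symbol, with earlier results of these data known. All 10 were found among the 25124 gene symbols listed and lay above the floor for testing. RNA came from epithelial cells sorted by flow cytometry from the lungs of wild-type C57BL/6 mice. All mice had been sensitised to house dust mite (HDM), an allergen that provokes asthma-like airway inflammation. The groups were HDM + DMSO, the solvent control (2 samples), and HDM + SCD1 inhibitor (2 samples), an agent against stearoyl-CoA desaturase 1, which puts a double bond into saturated fatty acids. The labels give no age, no name or dose of the inhibitor, no gate of the sort and no word on whether a sample is 1 animal or a pool, and no unsensitised mice were analysed here. The p-values therefore measure the spread between these samples, which may be technical and which the fits partly pool over genes.

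Alveolar type 2 cells are the cuboidal cells of the lung's air sacs that make surfactant, the film of lipid and protein that keeps the air sacs from collapsing. Its main lipid, a phosphatidylcholine with saturated chains, is packed with the hydrophobic proteins SP-B and SP-C into lamellar bodies, which are secretory organelles related to lysosomes. The collectins SP-A and SP-D are secreted beside them and bind microbes and allergens. Transcription factors of the NKX2-1, FOXA, C/EBP and ETS families are known to act on genes of these cells, and SREBP factors act on genes of lipid synthesis.

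The promoters of 7 of the 10 genes stood in a RefSeq-based table of mouse build GRCm38.p6, each window running from 250 bases before to 50 after a transcription start. The 4 shown are those in which a searched motif matched and which the results below turn on: 2 surfactant proteins, the lipid transporter Abca3, and Lamp3, whose level did not follow the others. Capitals mark the match to CTCAAG, a core of NKX2-1 sites, in Sftpa1 and Sftpb, to TCACNCCAC, an SREBP site, in Abca3, and to TGTTTAC, a FOXA core, in Lamp3. The windows are chr14:41131538-41131837 (plus strand), chr6:72304360-72304659 (plus), chr17:24351773-24352072 (plus) and chr16:19706316-19706615 (minus), printed 5′ to 3′ on the gene's strand.
Sftpa1: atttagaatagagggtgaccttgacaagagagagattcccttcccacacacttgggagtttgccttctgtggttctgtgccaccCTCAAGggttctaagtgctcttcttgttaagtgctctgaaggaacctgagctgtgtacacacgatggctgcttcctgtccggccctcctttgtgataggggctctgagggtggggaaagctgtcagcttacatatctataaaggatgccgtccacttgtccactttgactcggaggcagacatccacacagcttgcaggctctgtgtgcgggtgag
Sftpb: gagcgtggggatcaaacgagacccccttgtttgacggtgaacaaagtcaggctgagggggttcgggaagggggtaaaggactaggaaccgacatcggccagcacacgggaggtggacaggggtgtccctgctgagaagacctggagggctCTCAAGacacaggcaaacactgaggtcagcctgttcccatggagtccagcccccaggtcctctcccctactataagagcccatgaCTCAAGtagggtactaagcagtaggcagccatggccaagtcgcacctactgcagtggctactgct
Abca3: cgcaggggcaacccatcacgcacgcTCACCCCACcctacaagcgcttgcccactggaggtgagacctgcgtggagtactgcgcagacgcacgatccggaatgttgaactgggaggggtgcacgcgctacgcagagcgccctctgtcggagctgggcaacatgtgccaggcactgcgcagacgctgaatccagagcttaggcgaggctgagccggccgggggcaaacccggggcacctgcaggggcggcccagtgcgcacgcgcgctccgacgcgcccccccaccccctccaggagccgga
Lamp3: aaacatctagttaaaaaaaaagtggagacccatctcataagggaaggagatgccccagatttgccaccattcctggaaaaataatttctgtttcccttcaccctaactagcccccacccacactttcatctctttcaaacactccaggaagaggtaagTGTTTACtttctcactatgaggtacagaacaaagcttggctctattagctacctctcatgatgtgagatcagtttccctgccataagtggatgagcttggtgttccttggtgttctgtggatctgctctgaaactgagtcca

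Both strands were searched, and no matches overlapped between motifs. CTCAAG was found in Sftpa1, beginning at base -166 from the start, and at -100 and -15 in Sftpb, in 2 of the 7 genes, and in 15.9% of all 32851 promoter windows of the same length. TGTTTAC was found in Lamp3 at -92 and in 1 of the Etv5 windows, and in 3.65% of all windows. TTGCNNAA, a C/EBP site, stood in Slc34a2 (10.8% of all windows), TCACNCCAC in Abca3 at -225 (1.24%) and ACCGGAAG, an ETS core, in none of the 7 genes (2.30%). A match is a string of letters and not a shown binding site.

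The 4 libraries held 24591122 to 27013663 reads assigned to genes, and 14797 to 15924 genes had a value above 0. The values are normalised reads, that is, read counts divided by 1 size factor per library. Of 13810 genes tested with limma, 59 were lower and 188 higher with the inhibitor at a Benjamini-Hochberg adjusted p under 0.05. The median log2 fold change over all of them was 0.0056.

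The samples are labelled as airway epithelium, and the genes picked as typical of alveolar type 2 cells were abundant in all 4. Their summed reads made up 1.47% and 1.70% of the 2 DMSO libraries and 1.17% and 0.967% of the 2 inhibitor libraries. The 95% Wilson intervals reach at most from 1.69% to 1.70% in the DMSO library of the higher share, and cover counting error only. The groups did not overlap, with means of 1.59% ± 0.158 and 1.07% ± 0.143 (SD, n = 2 each; exact permutation p = 0.333, two-sided, the smallest that 2 samples against 2 can give). In bulk samples such as these, fewer cells of a type and less RNA per cell cannot be told apart. The type of cell that a read came from is not known either. Club cell markers, given below, were abundant in the same libraries. The part of club cells in the reads of the surfactant protein genes was not tested.

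Compared per length, the 10 genes spanned a wide range. Sftpc, which encodes the precursor of the small membrane peptide SP-C, had an RPKM (reads per kilobase of exon, scaled to the library's total reads) of 6374 with DMSO (mean of 5535 and 7213). Among 13643 tested genes with a known length it ranked between 2 and 4 in the 4 libraries. Sftpa1 followed with a mean of 1185, Sftpb with 924 and Sftpd with 343 on the same scale. Slc34a2, the phosphate transporter of type 2 cells, had 324, with DMSO libraries at 293 and 356 around those of Sftpd at 353 and 333, so that the order of these 2 genes was not set beyond the spread. Abca3 had 99.9. Lpcat1, Napsa and Lamp3 lay close together at 58.2, 57.5 and 48.2, and the DMSO libraries of Lpcat1 (53.8 and 62.6) and Napsa (53.7 and 61.2) overlapped. The transcription factor gene Etv5 was lowest at 22.4.

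**Figure D1:**
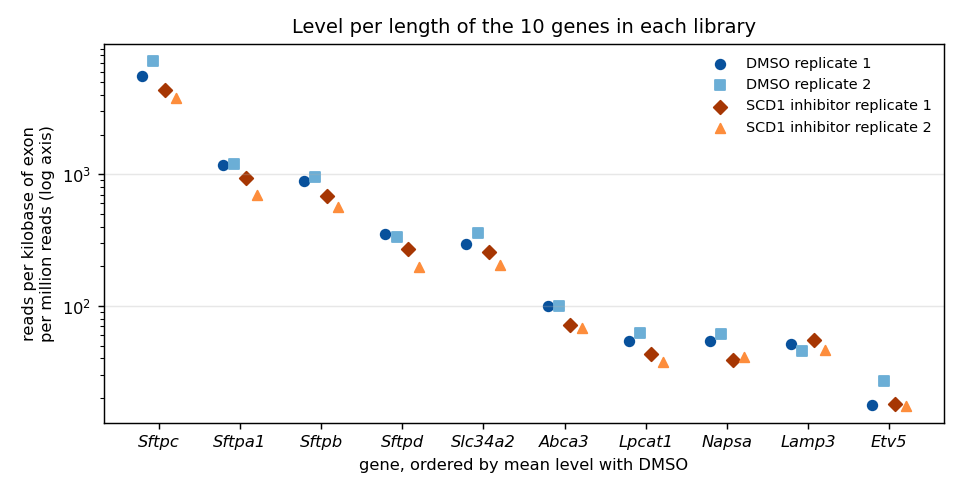
Level per length of each of the 10 genes in the 4 libraries, in reads per kilobase of exon scaled to library size (RPKM) on a log axis, with 1 point per library. Sftpc stands highest in every library, between 3780 and 7213, and Etv5 lowest, between 17.5 and 27.1.

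Of the 4 surfactant protein genes, Sftpb, Sftpc and Sftpd fell with the inhibitor in the test over all genes, and Sftpa1 did not pass. The lipid transporter gene Abca3 also fell, so that 4 of the 10 genes were called lower and none higher. Over all genes tested, 0.427% were called lower and 1.36% higher. Because the 10 genes were chosen with earlier results of these data known, such shares are no independent test of them. The 10 genes had a median of -0.53 on the log2 scale, and 9 of them were lower in both inhibitor libraries than in either DMSO library, which held for 22.2% of all genes tested. The 9 include Etv5, whose lower DMSO library (1899 normalised reads) and higher inhibitor library (1898) were nearly equal.

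Sftpc had 149317 and 191501 normalised reads in the DMSO libraries and 115828 and 100831 in the inhibitor libraries. Both inhibitor libraries lay below both DMSO libraries, and the DMSO pair was the further apart. The inhibitor mean, 108330.0 ± 10604, was 36.4% below the DMSO mean, 170409 ± 29829 (SD, n = 2 each). On the log2 scale the change was -0.65 (SE 0.14; 95% interval -0.94 to -0.35; adjusted p = 0.0345). Sftpc is a compact gene on chromosome 14 (70520949 to 70524081, minus strand, GRCm38, the sequence of mm10), with no other annotated gene overlapping it.

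Sftpb encodes SP-B, the protein needed to form the surfactant film, and lies on chromosome 6 (72304610 to 72314371, plus strand). It had 45863 and 48293 reads with DMSO and 34844 and 28785 with the inhibitor. Here the DMSO libraries were close and the inhibitor libraries were spread below them. The mean was 32.4% lower and the log2 fold change was -0.57 ± 0.12 (SE; adjusted p = 0.0286).

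The collectin genes Sftpa1 and Sftpd lie near each other on chromosome 14 (41131782 to 41136452, plus strand, and 41172214 to 41185149, minus strand). Sftpa1 had 88043 and 87422 reads with DMSO against 69371 and 51717 with the inhibitor. Sftpd had 22229.6 and 20649 against 16779 and 12294. In both genes the second inhibitor library was the lowest, by 0.42 (Sftpa1) and 0.45 (Sftpd) on the log2 scale below the other inhibitor library. Sftpd passed narrowly (log2 fold change -0.58, SE 0.13, adjusted p = 0.0498). Sftpa1, at -0.55 ± 0.13 (SE), did not pass over all genes (adjusted p = 0.0592).

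Of the genes that handle surfactant lipid or mature its proteins, Abca3 fell, and Lpcat1, Napsa and Slc34a2 did not pass over all genes. Abca3, the transporter that loads phospholipid into lamellar bodies, had 24349.6 and 24143 reads with DMSO and 17349.6 and 16454 with the inhibitor. The libraries of each group lay close to each other and the groups were well apart. Its log2 fold change was -0.52 ± 0.10 (SE; adjusted p = 0.0248), with a mean 30.3% lower. The long noncoding gene D330041H03Rik overlaps an exon of Abca3 (chromosome 17, 24351950 to 24410201, plus strand) on the opposite strand. It had 2845 and 2735 reads with DMSO and 1907 and 1845 with the inhibitor (log2 fold change -0.57, adjusted p = 0.0592). Whether the authors counted by strand is not given in the sources used here, so reads of the overlap cannot be told apart.

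Lpcat1, an acyltransferase that puts saturated chains into surfactant phosphatidylcholine, had 6499 and 7449 reads with DMSO and 5192 and 4513 with the inhibitor. Its log2 fold change was -0.52 ± 0.12 (SE; adjusted p = 0.0547). Napsa, the aspartic protease that cuts the SP-B and SP-C precursors, had 3729 and 4179 against 2657 and 2795 reads (-0.53 ± 0.13, SE; adjusted p = 0.0592). Slc34a2 had 38337 and 45764 against 33142 and 26303 (-0.50 ± 0.13, SE; adjusted p = 0.0755). In each of these 3 genes both inhibitor libraries lay below both DMSO libraries, and none passed over all genes.

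Lamp3, which encodes a glycoprotein of the lamellar body membrane, went another way. It had 4483 and 3888 reads with DMSO and 4806 and 4004 with the inhibitor. The groups overlapped, and 1 inhibitor library was the highest of the 4. The log2 fold change was 0.071 ± 0.13 (SE; 95% interval -0.22 to 0.36; adjusted p = 0.869), and its sign turned when DMSO replicate 2 (-0.031) or SCD1 inhibitor replicate 1 (-0.060) was left out. Relative to the median of the 10 genes in the same library, the log2 level of Lamp3 was -2.38 and -2.52 with DMSO and -1.83 and -1.83 with the inhibitor. That ratio was therefore higher in both inhibitor libraries, by 0.62 on average, where the other 9 genes had differences between -0.097 (Sftpc) and 0.24 (Etv5). With 2 samples a group the exact two-sided permutation p of that ratio was 0.333, the smallest possible, and Lamp3 was singled out after its values were seen. In humans the gene is also a marker of mature dendritic cells, and whether it marks them in these mouse samples was not tested. The common leukocyte gene Ptprc had 48.7 and 181 reads with DMSO and 241 and 69.2 with the inhibitor, and its part in the level of Lamp3 was not tested.

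**Figure D2:**
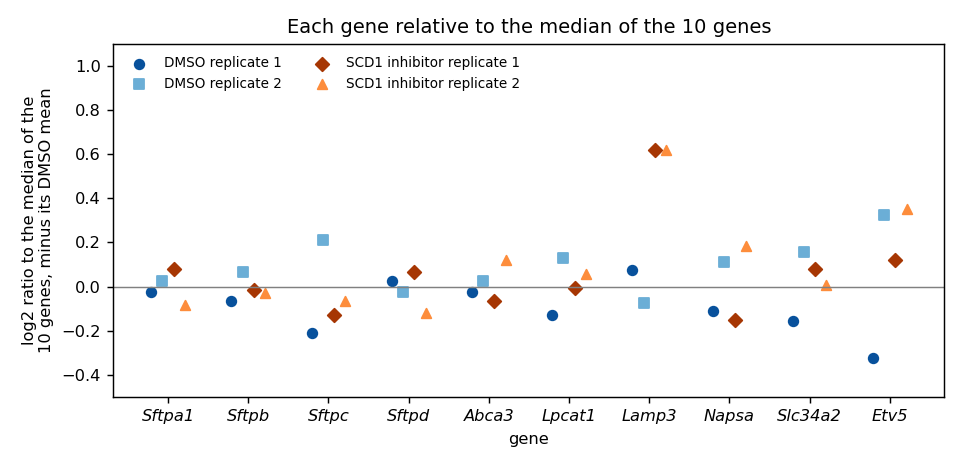
For each gene, the log2 ratio of its normalised reads to the median of the 10 genes in the same library, after subtracting the mean ratio of the DMSO libraries, with 1 point per library. Both inhibitor points of Lamp3 lie 0.62 above its DMSO mean, and in the other 9 genes the ranges of the 2 groups overlap.

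Etv5 encodes an ETS transcription factor that acts downstream of FGF and RAS signalling and helps maintain type 2 cells. It had 1899 and 2857 reads with DMSO and 1898 and 1856 with the inhibitor. The lower DMSO library and the higher inhibitor library were nearly equal, so the difference rested on DMSO replicate 2. The log2 fold change was -0.31 ± 0.18 (SE; 95% interval -0.70 to 0.083; adjusted p = 0.488). Leaving out DMSO replicate 2 gave -0.017, and leaving out DMSO replicate 1 gave -0.60 (adjusted p = 0.0237).

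The 8 genes other than Lamp3 and Etv5 had means that were 29.3% (Slc34a2) to 36.4% (Sftpc) lower, with log2 fold changes between -0.65 and -0.50. Their 95% intervals all overlapped. The spread within groups was not shared in the same way. Among these 8, the log2 difference between inhibitor replicates 1 and 2 was largest in Sftpd (0.45), Sftpa1 (0.42) and Slc34a2 (0.33), replicate 1 being the higher, and smallest in Abca3 (0.076) and Napsa (-0.072). In the DMSO pair, the log2 value of replicate 1 minus that of replicate 2 was -0.36 in Sftpc, -0.26 in Slc34a2 and -0.20 in Lpcat1, and 0.010 and 0.012 in Sftpa1 and Abca3. Over all genes tested, the median absolute log2 difference was 0.26 in the DMSO pair and 0.20 in the inhibitor pair.

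**Figure D3:**
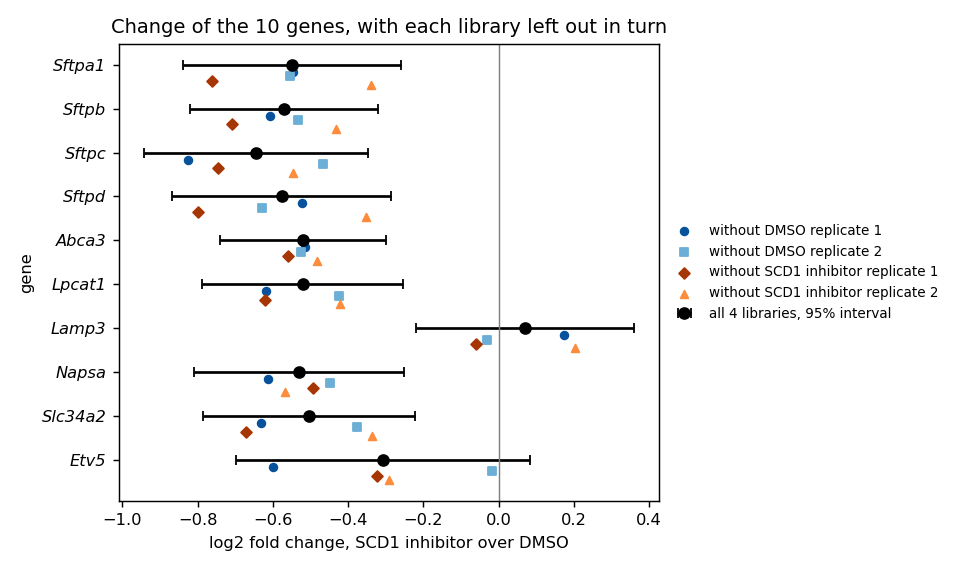
Log2 fold change of each gene, SCD1 inhibitor over DMSO, with its 95% interval from limma (black), and the value with each library left out (coloured points below). The intervals of 8 genes lie below 0, those of Lamp3 and Etv5 include 0, and no setting with a library left out moves any of the 8 above -0.34.

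The calls depended on which libraries and which model of the spread were used, more than the log2 fold changes did. At an unadjusted p under 0.05, 8 of the 10 were lower, against 5.92% of all genes tested. Without DMSO replicate 1, 9 genes were called lower (all but Lamp3), against 1.3% of all genes tested. Leaving out DMSO replicate 2 kept Sftpb, Sftpd and Abca3 called, against 0.833% of all genes, and Sftpc had -0.47 (adjusted p = 0.0751). Without SCD1 inhibitor replicate 1 or replicate 2, limma called none of the 10, with 8 at an unadjusted p under 0.05 in each case, and it called 0.0362% and 0.0869% of all genes lower. The log2 fold changes of Sftpb, Sftpc, Sftpd and Abca3 were then -0.71, -0.75, -0.80 and -0.56 without replicate 1 and -0.43, -0.55, -0.35 and -0.48 without replicate 2. Sftpd, the nearest to the threshold, also lost its call with TMM scaling (adjusted p = 0.0558) and with equal library totals (0.0595). On the recovered reads, edgeR called none of the 10 and 0.0652% of all genes lower. At an unadjusted p under 0.05 in edgeR, 8 of the 10 were lower, against 5.57% of all genes tested. The edgeR adjusted p of these 8 ran from 0.0655 for Sftpc to 0.144 for Slc34a2. DESeq2 called 8, all but Lamp3 and Etv5, and 1.23% of all genes lower.

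Other genes listed as typical of type 2 cells, a list chosen with earlier results of these data known, mostly lay on the same side. Of 19 tested, 18 had a negative log2 fold change, against 49.3% of all genes tested. The median was -0.36, 3 were called lower and none higher, against 0.427% and 1.36% of all genes tested. At an unadjusted p under 0.05, 10 were lower and 1 higher, against 5.92% and 8.16%. DESeq2 called 4 lower (1.23% of all genes) and edgeR none. Lyz2, a lysozyme gene shared by type 2 cells and macrophages, had 43507 and 49541 reads with DMSO against 32779.5 and 27743 with the inhibitor, 1.54-fold lower (adjusted p = 0.0205). Chil1, a secreted chitinase-like protein, had 21059 and 20512 against 14836 and 10799.7, 1.64-fold lower (adjusted p = 0.0203). Lgi3, a secreted leucine-rich repeat protein, had 5016 and 5827 against 3909 and 3291, a mean 33.6% lower (adjusted p = 0.0434). The low second inhibitor library of the collectins recurred in Chil1, but was not particular to type 2 genes. Club cell markers summed to 672947 reads in SCD1 inhibitor replicate 1 and 465368 in replicate 2. Goblet cell markers went the other way, with 19157 and 37168. The groups did not overlap in Lyz2, Chil1 or Lgi3, and 15 of the 19 genes were lower in this way, against 22.2% of all genes tested. Without SCD1 inhibitor replicate 1 these calls ended with log2 fold changes of -0.74 (Lyz2), -0.94 (Chil1) and -0.71 (Lgi3), and without replicate 2 with -0.50, -0.49 and -0.47, and that of Lgi3 ended without DMSO replicate 2 (-0.48, adjusted p = 0.0710). Ank3, a membrane scaffold gene, was the 1 positive gene (0.27, adjusted p = 0.303) and was named after its value was seen. Cxcl15, a chemokine of the lung epithelium, which was also named so, had 16384 and 17404 against 16384 and 13284 reads (-0.19, adjusted p = 0.505). It counts among the 15 genes without overlap, though its lower DMSO library and higher inhibitor library were nearly equal.

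Of 30 genes of phosphatidylcholine synthesis and remodelling, 18 were negative, against 49.3% of all genes tested, and the median was -0.086. Limma called none. At an unadjusted p under 0.05, 4 were lower and 1 higher, against 5.92% and 8.16% of all genes. DESeq2 called 2 lower, against 1.23% of all genes, and edgeR none. Prdx6, a peroxiredoxin with a phospholipase activity that recycles surfactant lipid, had 14604 and 15217 reads with DMSO against 11707 and 10124 (-0.45 ± 0.11, SE; adjusted p = 0.0594). The choline transporter-like gene Slc44a2 had 2276 and 2500 against 1590.0 and 1547 (-0.60 ± 0.15, SE; adjusted p = 0.0611). In both genes, picked for their small p, the groups did not overlap. In the whole list 9 genes were lower in this way and 8 higher, against 22.2% and 22.7% of all genes tested. Chpt1, named after its value was seen, was higher, with 1757 and 1867 against 2768 and 2306 reads (0.47, limma adjusted p = 0.161). With 1 library left out, the log2 fold change ranged from -0.56 to -0.35 in Prdx6 and from -0.66 to -0.53 in Slc44a2.

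Of 28 genes of the lamellar body and secretory lysosome machinery, 23 were negative, against 49.3% of all genes tested, with a median of -0.14. Limma called none of them, and 3 were lower at an unadjusted p under 0.05, against 5.92% of all genes. DESeq2 called 1 lower, against 1.23% of all genes, and edgeR none. Stard10, a phospholipid transfer protein gene, had 4724 and 4561 against 3436 and 3499.6 reads (-0.42 ± 0.12, SE; adjusted p = 0.114). Rab32, a small GTPase gene of lysosome-related organelles, was low, at 135 and 88.2 reads with DMSO and 14.3 and 0 with the inhibitor (adjusted p = 0.121). Its fitted log2 fold change, -2.07, went from -0.95 to -3.32 with the pseudocount.

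Of 20 transcription factor and FGF signalling genes, 13 were negative, against 49.3% of all genes tested, and the median was -0.18. Limma, edgeR and DESeq2 called none. In limma, 4 were lower at an unadjusted p under 0.05, against 5.92% of all genes. Cebpa, which encodes a C/EBP factor, had 5485 and 5703 against 4369 and 4402 reads (-0.35 ± 0.11, SE; adjusted p = 0.173). Tfcp2l1, a grainyhead-related factor gene, had 3083 and 2619 against 2215 and 1999 (-0.43 ± 0.15, SE; adjusted p = 0.187). Nkx2-1, the master regulator of lung epithelium, was named after its values were seen and had 7982 and 7263 against 6498 and 6734 (-0.20 ± 0.11, SE; adjusted p = 0.457). The inhibitor libraries were the lower ones in each of these 3 genes, which were picked by p or by their values. That held for 7 of the 20, against 22.2% of all genes tested. In 1 gene, Gata6, named after its value was seen, both inhibitor libraries were the higher ones (0.27, adjusted p = 0.536).

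**Figure D4:**
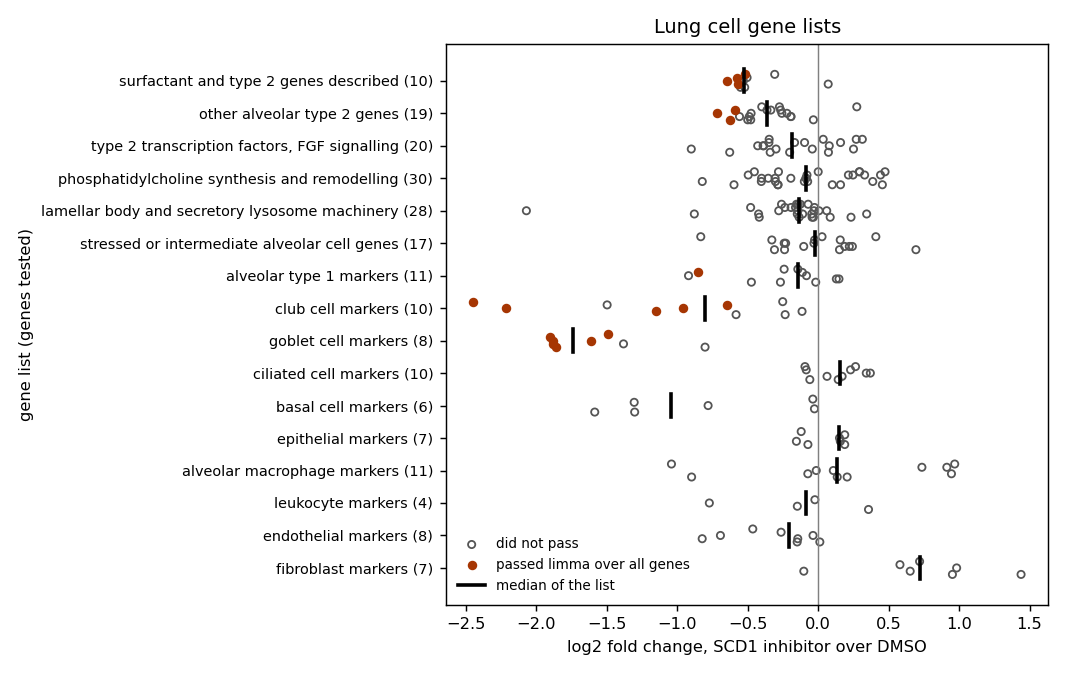
Log2 fold change of each tested gene of the lists of lung cell genes, 1 point per gene, filled where the gene passed limma over all genes, with a bar at the list median. The 10 surfactant and type 2 genes have a median of -0.53, with 8 of them between -0.65 and -0.50, Etv5 at -0.31 and Lamp3 at 0.071, goblet cell markers lie further below 0, and ciliated cell and epithelial markers lie around 0.

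Markers of other cells in the sort moved in the same libraries, and their part in the values above was not tested. The 8 goblet cell markers were all negative (median -1.74), with summed reads of 80913 to 106489 with DMSO and 19157 to 37168 with the inhibitor. Limma called 6 of them lower, edgeR 3 and DESeq2 6, against 0.427%, 0.0652% and 1.23% of all genes tested. Club cell markers had 5 of 10 called lower by limma, 1 by edgeR and 5 by DESeq2, against the same shares of all genes. Their median was -0.81, with sums of 671157 to 769921 and 465368 to 672947. The most abundant gene was Clca1 among the goblet cell markers and Scgb1a1 among the club cell markers. Scgb1a1 was not called, with a log2 fold change of -0.23 (limma adjusted p = 0.729). With 1 library left out, that value ranged from -0.75 to 0.28. Ciliated cell markers, led by Sec14l3, had sums of 495089 to 509960 and 498493 to 515042 (median 0.16), and the common epithelial markers, led by Cdh1, 108849 to 112450.0 and 107440.0 to 111739 (median 0.15). None of these 2 lists had a member called by limma or edgeR. In limma, 2 ciliated markers were higher at an unadjusted p under 0.05, against 8.16% of all genes. DESeq2 called 1 ciliated marker higher, against 2.74% of all genes. Basal cell markers, led by Krt5, had sums of 1880.0 to 2970 and 595 to 1595 and a median of -1.04. Limma and edgeR called none of them. In limma, 3 were lower at an unadjusted p under 0.05, against 5.92% of all genes. DESeq2 called 2 lower, against 1.23% of all genes.

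Alveolar type 1 cells, the flat cells that type 2 cells renew, had 9 of 11 tested markers negative, against 49.3% of all genes tested. The median of these markers was -0.14, and Emp2 was the most abundant. At an unadjusted p under 0.05, 2 of them were lower, against 5.92% of all genes. DESeq2 called 2 lower, against 1.23% of all genes, and edgeR none. Limma called 1 lower, against 0.427% of all genes. It was the water channel gene Aqp5, named after its value was seen, with 2387 and 2029.6 against 1171 and 1243 reads (adjusted p = 0.0203). Alveolar macrophages, which take up surfactant and express Lyz2, had a marker sum of 5588 to 8559 with DMSO and 7484 to 9770 with the inhibitor, most of it from Plet1 and Chil3. Their scavenger receptor gene Marco had at most 43.0 reads, below the floor for testing, and Cd68 at most 215. Leukocyte markers summed to 315 to 882 and 432 to 661 reads, with S100a8, S100a9 and Ccr3 at 0 in every library. Endothelial markers, led by Vwf, summed to 4428 to 13455 and 4585 to 6336, DMSO replicate 2 being the highest. Fibroblast markers, led by Col3a1, summed to 914 to 2507 and 2805 to 2864, with Lum at 0, and red blood cell markers reached 18.2 at most.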

How the data were processed

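RNA of sorted epithelial cells was sequenced from total RNA with a directional library kit, per the labels' protocols. The authors deposited 1 table of normalised signal values for 4 libraries. HOMER, DESeq2 and build mm10 appear in the submitters' processing notes. The aligner, versions, filters and use of strand were not stated in any source used here. Every deposited value was a whole multiple (within 0.01) of 1 step per library, 0.956 to 1.05, whose inverse equalled the median-of-ratios size factor, so the signal is a read count divided by a size factor. In DMSO replicate 2 the step, 0.991, lies so near 1 that only the multiples and the size factor mark it. Recovered reads served edgeR 4.0.16, DESeq2 1.42.0, shares and levels per length.

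Log2(value + 25.8), where 25.8 equals 1 CPM at the mean library total, was fitted with limma 3.58.1 (R 4.3.3, intensity trend, no block) for 13810 genes with a mean of at least 25.8, and p was adjusted by Benjamini-Hochberg over all of them (threshold 0.05). Fold changes are on that scale, which understates those of low genes. The spread of each gene is drawn partly from other genes of similar level (limma prior degrees of freedom 11.2). At the floor, counting error is 19.7% per library. PCR copies are not independent molecules, so intervals of shares cover counting error only. Loci and exon lengths came from GENCODE M21. The fits were tested on simulated data. The members and lists were chosen with earlier results of these data known. Named were the 10 genes, from each function list up to 4 genes that passed or else the 2 of smallest p, the most abundant gene of each marker list, and the 5 genes of nearest profile; others are marked where they stand, except Ptprc, Chil3, Marco, Cd68, Lum, S100a8, S100a9 and Ccr3 of the marker lists and D330041H03Rik, which overlaps Abca3, all chosen after their values were seen. Alternatives were other pseudocounts, floors, scalings and models, a replicate block, and each library left out.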

Additional observations from a re-analysis of the deposited data

How the results depend on the processing

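Of the 140 log2 fold changes that the 10 genes had under 14 alternatives, all those of the 9 genes other than Lamp3 were negative, and Lamp3 was negative in 2. At an unadjusted p under 0.05, 5 of the 10 were lower with limma lacking the intensity trend, 8 with edgeR and 8 with DESeq2. Over all genes tested these shares were 4.24%, 5.57% and 5.59%. Against 4 genes called lower, the count called was 0 with no filter on low values, with limma lacking the intensity trend and with edgeR, and 8 with DESeq2. It ranged from 0 to 9 with 1 library left out. The median of the 10 ranged from -0.65 to -0.39 with 1 library left out. The difference in summed share of the library, -0.52 percentage points, ranged from -0.63 to -0.41. Over all genes, called lower and higher were 59 and 188. They were 13 and 51 with no filter, 0 and 0 without the trend (586 lower at an unadjusted p under 0.05), 9 and 33 with edgeR, and 170 and 378 with DESeq2, and ranged from 5 to 179 and from 0 to 616 with 1 library left out. The cause of these differences between models was not tested.

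With the replicate block, 8 of the 10 genes (all but Lamp3 and Etv5) and, over all genes, 205 lower (1.48%) and 469 higher were called. The labels do not say that the numbers pair the samples. The differences between replicates 1 and 2 of the 2 groups correlated across genes at 0.073. That value does not decide whether the samples were paired.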

Other observations

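Genes of stressed or intermediate alveolar cells, the state through which type 2 cells pass towards type 1 cells, showed no common direction. Of 17 tested, 9 were negative and 8 positive, where 49.3% of all genes tested were negative. The median log2 fold change was -0.025, and limma, edgeR and DESeq2 called none. In limma, 1 was lower at an unadjusted p under 0.05, against 5.92% of all genes. The keratin gene Krt19 had 13992 and 14044 normalised reads with DMSO and 10952 and 12839 with the inhibitor (-0.24, adjusted p = 0.355). Mdm2, the ubiquitin ligase gene that restrains p53, had 8213 and 6394 against 8317 and 8849 (0.24, adjusted p = 0.432); without DMSO replicate 1 its value was 0.42 (adjusted p = 0.0346), and without DMSO replicate 2 it was 0.063 (adjusted p = 0.835).

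The 5 genes outside the lists whose centred log2 values over the 4 libraries lay nearest to the mean of the 4 surfactant protein genes were Bckdha, Opa3, Idh1, Dph2 and Il17re. Their root mean square distances were 0.0071, 0.016, 0.023, 0.027 and 0.027. Bckdha, a subunit of branched-chain amino acid breakdown, had 917 and 957 reads with DMSO and 693 and 543 with the inhibitor (-0.59, adjusted p = 0.241), and Idh1, an isocitrate dehydrogenase that makes NADPH, had 1460.1 and 1511 against 1097 and 896 (-0.57, adjusted p = 0.161). None of the 5 passed limma over all genes. Over 4 libraries many genes have such a profile: 128 tested genes lay within 0.1, among them 3 of the surfactant protein genes that define it, Lpcat1 and Slc34a2, while Lamp3, at 0.34, had 5545 genes nearer than itself.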
